A study of Mus musculus with 7 samples.

Results

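miR-128 (mmu-miR-128) is a microRNA (miRNA) that is made from the hairpins Mir128-1 and Mir128-2, each of which lies in an intron of a protein-coding gene. It was followed here in small RNA of the mouse hippocampus by its name in the comparison tables, together with every * product of its stem, which is the miRNA cut from the opposite arm of the hairpin. The rule found 3 products (miR-128, miR-128-1* and miR-128-2*) of 757 names, and 4 mature loci of the 2 hairpins among 806 loci in the library files.

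The study asked how inhibition of protein phosphatase 1 (PP1) in forebrain neurons and training on an object memory task affect hippocampal miRNAs. The mice were C57BL/6 adults of 3 to 5 months. NIPP1* mice carried the PP1-binding fragment of a nuclear inhibitor of PP1, fused to EGFP under a tetO promoter, and a reverse tetracycline transactivator under the CaMKIIalpha promoter, so that the fragment was made in forebrain neurons on a doxycycline diet. Control mice were littermates labelled wildtype, and which transgenes they carried, if any, is not given in the sources used here. Trained mice had explored objects in an object recognition task (NOR), and non-trained mice had been placed in the chamber alone. RNA of several mice was pooled, and the sources used here do not say which mice went into which library, so p-values measure only the spread between libraries. The labels give 1 non-trained control library (library 1) and 1 non-trained NIPP1* library (library 2). They give 3 libraries of trained controls (3, 4 and 5) and 2 of trained NIPP1* mice (6 and 7). The transgene leaves no small RNA that was counted here, and genotypes were therefore not checked in the data. The libraries held between 7285262 and 10017736 miRNA reads.

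Most mature miRNAs guide an Argonaute protein to messenger RNAs that pair with bases 2 to 8 of the miRNA, the seed, and thereby lower the output of those messenger RNAs. An intronic miRNA is cut from the primary transcript of its host gene, trimmed to a hairpin in the nucleus and then to a short duplex in the cytoplasm, of which 1 strand is usually kept. miR-128 is enriched in neurons of the adult forebrain and is known as a regulator of neuronal excitability.

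The sequences show why the hairpins share a major product and yet can be told apart. The mature products are printed 5′ to 3′ with the seed in capitals, as RefSeq gives them on GRCm38.p6.
miR-128: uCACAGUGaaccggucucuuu
miR-128-1*: cGGGGCCGuagcacugucuga
miR-128-2*: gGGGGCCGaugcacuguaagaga
In the hairpins the capitals mark the mature products, first the * product of the 5′ arm and then miR-128 on the 3′ arm.
Mir128-1: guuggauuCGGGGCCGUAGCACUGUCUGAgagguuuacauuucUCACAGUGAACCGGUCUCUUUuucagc
Mir128-2: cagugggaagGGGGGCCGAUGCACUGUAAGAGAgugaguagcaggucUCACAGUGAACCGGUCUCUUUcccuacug
The 21 bases of miR-128 were identical in both hairpins, and the identical stretch ran 2 bases further on the 5′ side of it and 0 bases further on the 3′ side. The * products differed from each other, with a longest shared run of 7 bases. A read within these 23 identical bases therefore does not tell which hairpin it came from, whereas a read of a * product does.

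On NCBI37/mm9, the build of the files, the Mir128-1 hairpin of 70 bases lay at chr1:130098938-130099007 on the plus strand, inside R3hdm1, which encodes a protein with an R3H domain. The Mir128-2 hairpin of 76 bases lay at chr9:112021140-112021215 on the minus strand, inside Arpp21, which encodes a cAMP-regulated phosphoprotein abundant in forebrain neurons. Each hairpin was on the strand of its host gene. The Mir128-1 hairpin was spanned by 2 annotated transcripts of R3hdm1 and overlapped 0 of its exons, in a gap of 14107 bases between the nearest annotated exons. The Mir128-2 hairpin was spanned by 12 transcripts of Arpp21 and overlapped 0 of its exons, in a gap of 2415 bases. The miR-128 loci were at chr1:130098981-130099001 and chr9:112021148-112021168. The locus of miR-128-1* was at chr1:130098946-130098966 and that of miR-128-2* at chr9:112021183-112021205. The messenger RNAs of the hosts were not measured in these libraries.

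miR-128 was among the most abundant miRNAs of the hippocampus. Levels are given as reads in 1000000 miRNA reads (RPM), obtained from deposited percentages. The product stood at 53960 RPM in the non-trained control library and at 65650 RPM in the non-trained NIPP1* library. In libraries 3, 4 and 5 of the trained control group it stood at 60475, 62300 and 71940 RPM. In libraries 6 and 7 of the trained NIPP1* group it stood at 58385 and 57695 RPM. The lowest value was thus that of library 1 and the highest that of library 5. These values were between 5.396% and 7.194% of all miRNA reads.

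The mean of miR-128 was 61486 ± 5901 RPM (SD, n = 7), the highest library was 1.33 times the lowest, and the coefficient of variation was 9.60%. Among the 68 miRNAs that reached a mean of 1000 RPM the median coefficient of variation was 10.4%, and 40 of them varied more than miR-128. miR-128 ranked 4 of 756 sequences by mean level and held rank 4 in every library. miR-9, a neural miRNA, at 128329 ± 14346 RPM (SD, n = 7), miR-29a, with 111943 ± 5634 RPM, and miR-125b-5p, with 93854 ± 11251 RPM, were above it in 7 of 7 libraries. let-7c at 54504 ± 7847 RPM, miR-26a, itself an intronic miRNA, at 50210 ± 2627 RPM and let-7f at 40525 ± 4209 RPM were above it in 0 of 7 libraries. The ranges of let-7c (44775 to 66190 RPM) and miR-128 over the libraries nevertheless overlapped. Levels of different miRNAs are compared here as reads, which need not be in proportion to molecules.

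The * products were present in every library at a small share of this level. miR-128-1* had between 342 and 540 reads, which gave 39.93 RPM in library 1, 42.37 in library 2, 41.83, 50.76 and 63.19 in libraries 3, 4 and 5, and 47.91 and 53.90 in libraries 6 and 7. Its highest library, number 5, was also the highest for miR-128. miR-128-2* had between 56 and 106 reads, which gave 7.87 RPM in library 1, 8.30 in library 2, 6.83, 12.69 and 10.87 in libraries 3, 4 and 5, and 8.78 and 7.09 in libraries 6 and 7. Here the trained control group held both the lowest and the highest library. By mean level miR-128-1* ranked 233, at 48.6 ± 8.22 RPM (SD, n = 7), and miR-128-2* ranked 342, at 8.92 ± 2.13 RPM. The highest library was 1.58 times the lowest for miR-128-1* and 1.86 times for miR-128-2*, a wider relative range than that of miR-128.

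**Figure D1:**
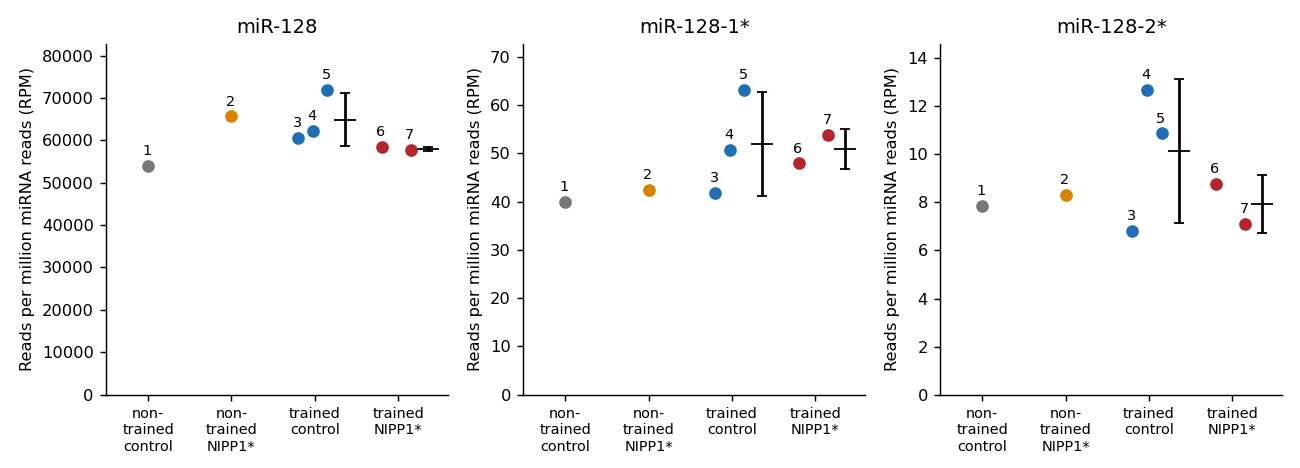
Level of the 3 products of the miR-128 stem in RPM (linear axes from 0), with 1 point per library and its number, in the 4 groups as labelled. The black marks give the mean and SD of the trained groups, and the non-trained groups have 1 library each. miR-128 lies between 53960 and 71940 RPM in all 7 libraries, with library 1 lowest and library 5 highest.

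The seed of miR-128, CACAGUG at bases 2 to 8, was found at the same bases in 1 of 1674 distinct mouse mature sequences in RefSeq, namely in miR-128 itself. Shifted copies of these 7 letters within the first 10 bases occurred in the RefSeq entries miR-27a-3p, miR-27b-3p, miR-216a-3p and miR-497b, and miR-27a, miR-27b and miR-216a* were matched in the libraries. They are shown with the shared letters in capitals, which start at base 3 in miR-27 and at base 1 in miR-216a*.
miR-27b: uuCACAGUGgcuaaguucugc
miR-27a: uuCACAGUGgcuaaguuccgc
miR-216a*: CACAGUGgucucugggauuaug
miR-27b had a mean of 1079 ± 102 RPM (SD, n = 7), and the mean of miR-128 was 57.0 times that. miR-27a had a mean of 61.5 ± 5.83 RPM. miR-216a* was listed at 0 in libraries 2, 3, 4 and 6 and reached 0.22 RPM in library 1. Of the reads that carry these 7 letters near the 5′ end, those of miR-128 were thus by far the most numerous in every library.

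**Figure D2:**
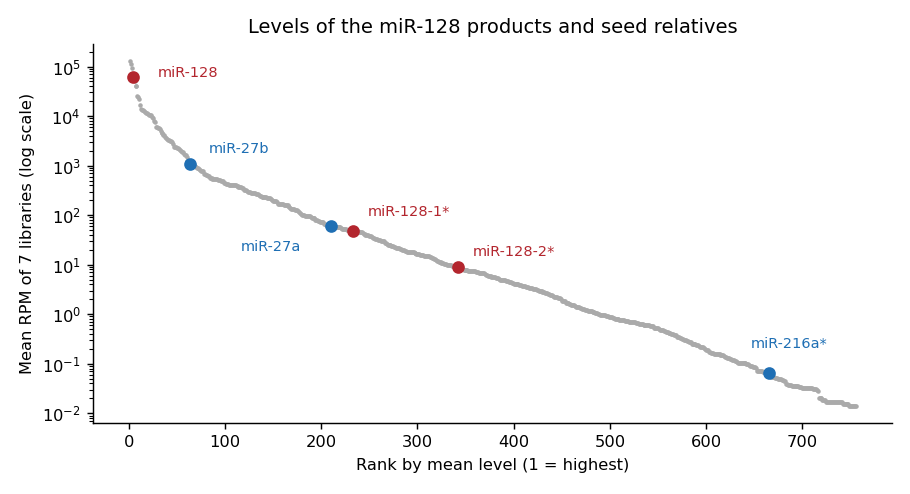
Mean level over the 7 libraries (RPM, log axis) of each mature sequence against its rank by mean level, with 1 grey point per sequence. miR-128 and its * products are red and the miRNAs with a shifted copy of its seed are blue. miR-128 is at rank 4, miR-128-1* at rank 233 and miR-128-2* at rank 342.

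Reads of the 5′ arm were rare beside those of the 3′ arm. The 5′ arm gave between 0.0771% (library 2) and 0.106% (library 7) of all reads of the stem, with exact 95% intervals of 0.0698% to 0.0850% and 0.0974% to 0.114% (Clopper-Pearson). Such intervals describe counting error alone, because PCR copies of a molecule are not independent. There were between 946 and 1296 reads of miR-128 for each read of a * product. Among 33 miRNAs with a mean of at least 1000 RPM and a matched * product, the share of the * product ranged from 0.0159% to 15.9%, with a median of 0.622%. The share was 0.0934% for miR-128, and 8 of these miRNAs had a lower one. miR-9, the most abundant miRNA, had the highest share, 15.9%.

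Most of the 5′ arm reads came from Mir128-1. Summed over the libraries there were 2847 reads of miR-128-1* and 519 of miR-128-2*, so that 84.6% were of miR-128-1*. The share of miR-128-1* was 83.5% in library 1, 83.6% in library 2, 86.0%, 80.0% and 85.3% in libraries 3, 4 and 5, and 84.5% and 88.4% in libraries 6 and 7. The exact 95% intervals of the lowest share (76.3% to 83.3%, library 4) and the highest (85.6% to 90.8%, library 7) did not overlap. The intervals of all other pairs of libraries overlapped. The ratio of the * products, between 4 and 7.61, is a ratio of reads, and the share of each duplex whose 5′ strand is kept was not measured.

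The deposited value of miR-128 also differed between its loci, although the sequence is the same. At the Mir128-1 locus it was 6.345% in library 1, 7.721% in library 2, 7.152%, 7.323% and 8.527% in libraries 3, 4 and 5, and 6.900% and 6.791% in libraries 6 and 7. At the Mir128-2 locus it was 4.447% in library 1, 5.409% in library 2, 4.943%, 5.137% and 5.861% in libraries 3, 4 and 5, and 4.777% and 4.748% in libraries 6 and 7. The first locus was above the second in every library, by a ratio of 1.43 to 1.45, which varied far less between libraries than the ratio of the * products. The mean of the loci rebuilt the reads of miR-128 in the authors' comparison tables, with 479748 reads for library 1 against 479771 in the table, so the mean was used as the level. Of 39 miRNAs with several loci, 27 had a locus at 0.01% or more of the reads of library 1, and in 10 of these the highest locus was over 0.5% above the mean of the loci. The methods of the study speak of uniquely mapping reads, and how reads that fit both loci entered the values is not given in the sources used here. The locus values were therefore not read as the output of each hairpin, and whether reads longer than the shared bases set the difference was not tested.

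**Figure D3:**
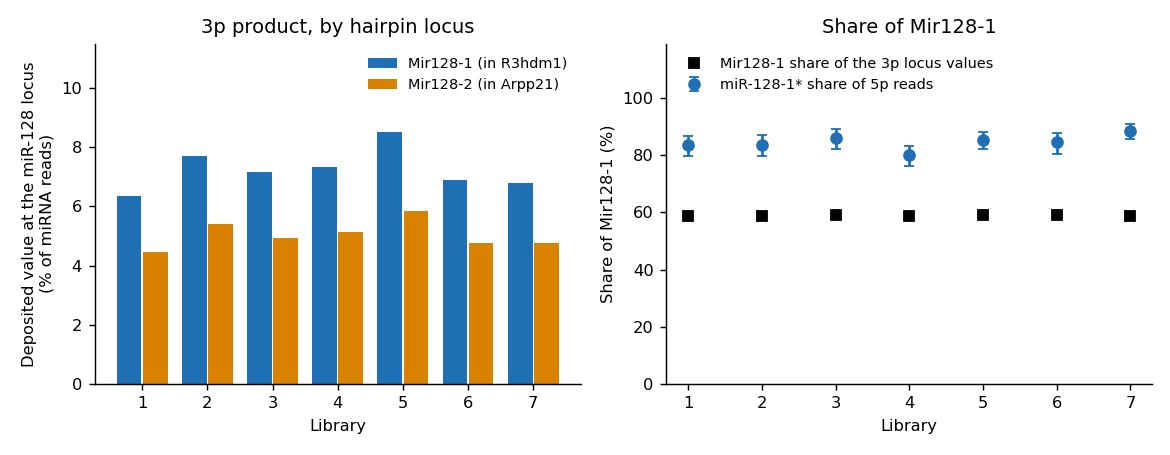
Left, the deposited value of miR-128 (percent of miRNA reads) at the Mir128-1 and Mir128-2 loci in each library. Right, the share of Mir128-1 in the summed values of the miR-128 loci (squares) and the share of miR-128-1* in the reads of both * products (circles with exact 95% binomial intervals, counting error only). The locus share lies between 58.8% and 59.3%, and the * share between 80.0% and 88.4%.

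Before the groups are compared, a limit on the trained libraries has to be given. The group means in the authors' comparison tables were rebuilt from these libraries over 319 miRNAs. The trained control mean of the tables was rebuilt by libraries 6 and 7 with a root mean square error of 0.0514%, against 18.8% for libraries 3, 4 and 5. The trained NIPP1* mean of the tables was rebuilt by libraries 3, 4 and 5 with an error of 0.0759%, against 18.3% for libraries 6 and 7. The tables thus name the trained groups the other way round from the labels, and nothing in the data decides between them. The groups here follow the labels, and the limma differences of miR-128 that involve a trained group are given under both assignments.

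The difference of miR-128 between trained and non-trained control mice was not past the threshold. The trained control libraries had a mean of 64905 ± 6160 RPM (SD, n = 3), and each of them was above the library labelled non-trained control, at 53960 RPM. Of 476 miRNAs tested, 18.3% had this pattern in the same direction. On the log2(RPM + 0.5) scale the difference was 0.26 with an SE of 0.119 and a 95% interval of -0.02 to 0.54 (limma adjusted p = 0.666). A larger difference in either direction was seen for 45.6% of the miRNAs, and the median of all was -0.09. Other scalings and tests gave larger values for miR-128, between 0.30 (total without the 10 most abundant other miRNAs) and 0.36 (DESeq2 Wald test). limma called 0 of 476 miRNAs (0%) in this comparison, 28 miRNAs (5.88%) had an unadjusted p under 0.05, edgeR called 0 and DESeq2 called 1, miR-129-2-3p, named after its values were seen. The 28 became 108 without library 3 and 14 to 16 without library 4, 5, 6 or 7, and 12 with the groups of the tables. With libraries 6 and 7 as the trained control group, as in the tables, the difference of miR-128 was 0.11 (limma adjusted p = 0.994), and each library of that group was again above library 1, as for 28.8% of the miRNAs. Without library 5, the highest, it was 0.19 (limma adjusted p = 0.876).

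The difference of miR-128 between trained NIPP1* and trained control mice, with 2 and 3 libraries by the labels, was also not past the threshold. Both trained NIPP1* libraries, with a mean of 58040 ± 488 RPM (SD, n = 2), were below the 3 trained control libraries. The same order was seen for 7.77% of the miRNAs tested and the reverse order for 18.7%. The log2 difference was -0.16 with an SE of 0.0937 and a 95% interval of -0.38 to 0.07 (limma adjusted p = 0.662), and 55.7% of the miRNAs had a larger one in size. Under the assignment of the tables the order and the sign turned, to 0.16. Without library 5 the difference was -0.08 and without library 3 it was -0.21. It was -0.23 with TMM scaling and -0.24 with edgeR. limma called 0 of 476 miRNAs (0%), 34 (7.14%) had an unadjusted p under 0.05, edgeR called 0 and DESeq2 called 1, miR-344d-3*, named after its values were seen. The 34 became 113 without library 3 and 10 to 17 without library 4, 5, 6 or 7.

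In NIPP1* mice, both trained libraries were below the library labelled non-trained NIPP1*, at 65650 RPM, as was the case for 39.5% of the miRNAs. The log2 difference of miR-128 was -0.18 with a 95% interval of -0.48 to 0.12 (limma adjusted p = 0.973). Under the assignment of the tables it was -0.02, and the order was lost, since library 5 at 71940 RPM was above library 2. limma called 0 of 476 miRNAs (0%), 21 (4.41%) had an unadjusted p under 0.05, edgeR called 0 and DESeq2 called 2, miR-136 and miR-146a, named after their values were seen. The 21 became 37 without library 3, 10 without library 6 and 9 with the groups of the tables.

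The difference between genotypes in the training effect was -0.44 for miR-128, with an SE of 0.173 and a 95% interval of -0.85 to -0.03 (limma adjusted p = 0.577). It did not pass the threshold once all miRNAs were taken into account, and 32.4% of the miRNAs had a larger difference in size. Of the miRNAs tested, 8.40% had every trained control library above the non-trained control and both trained NIPP1* libraries below the non-trained NIPP1* library, as miR-128 had, and 13.4% had the reverse. limma called 0 of 476 (0%), 37 (7.77%) had an unadjusted p under 0.05, miR-128 among them, edgeR called 0 and DESeq2 called 2, miR-136 and miR-344d-3*. The 37 became 85 without library 3, 21 to 24 without library 4, 6 or 7, and 6 with the groups of the tables. miR-128 was no longer at an unadjusted p under 0.05 without library 6 or 7, with DESeq2 size factors, with the DESeq2 Wald test or with no read minimum. Under the assignment of the tables the value for miR-128 was -0.13 (limma adjusted p = 0.997), and miR-128 did not have this arrangement, which 6.30% of the miRNAs had. Each non-trained group had 1 library, and the model gave it the spread of the trained groups. Of the 12 neuron-enriched miRNAs described below, 10 were positive and 2 negative by the labels (median 0.33), and 5 and 7 by the tables (median -0.05). Values of the markers of other cell types in this comparison are also given below.

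Averaged over genotypes, miR-128 differed between trained and non-trained mice by 0.04, with a 95% interval of -0.16 to 0.25 (limma adjusted p = 0.958), under either assignment. With other scalings and tests this value was between 0.061 and 0.11. Averaged over training states, it differed between NIPP1* and control mice by 0.06, with a 95% interval of -0.14 to 0.27 (limma adjusted p = 0.997), and by 0.22 under the assignment of the tables (limma adjusted p = 0.577). limma called 0 of 476 miRNAs (0%) in each of these comparisons, with 16 (3.36%) and 6 (1.26%) at an unadjusted p under 0.05. The 16 became 65 without library 3, 10 without library 4 and 5 without library 6, and the 6 became 17 without library 3, 1 without library 6 and 37 under the assignment of the tables. edgeR called 0 in each, and DESeq2 called 1 and 0. The value for NIPP1* against control mice was 0.023 with TMM and 0.020 with edgeR. The 0.22 under the assignment of the tables rests on the same contrast of libraries as the -0.44 by the labels above. It is therefore not a separate result.

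The * products did not pass the threshold in any of these comparisons by limma, and their intervals were wider. Between trained and non-trained control mice, miR-128-1* differed by 0.35 (95% interval -0.27 to 0.98, limma adjusted p = 0.677) and miR-128-2* by 0.30 (95% interval -0.56 to 1.16, limma adjusted p = 0.758). With the groups of the tables the value of miR-128-2* was 0.0039, and without 1 library it lay between 0.13 (without library 4) and 0.55 (without library 3). The value of miR-128-1* was 0.34 with the groups of the tables, and it lay between 0.20 (without library 5) and 0.50 (without library 3). Between trained NIPP1* and trained control mice the difference was -0.01 for miR-128-1* (95% interval -0.51 to 0.48) and -0.30 for miR-128-2* (95% interval -0.98 to 0.38). The trained groups had means of 51.9 ± 10.7 RPM (SD, n = 3) and 50.9 ± 4.24 RPM (n = 2) for miR-128-1*, and of 10.1 ± 3.00 and 7.94 ± 1.20 RPM for miR-128-2*, in controls and NIPP1* mice. For each * product the libraries of the trained groups overlapped. In NIPP1* mice, trained against non-trained, the difference was 0.26 for miR-128-1* (95% interval -0.40 to 0.92) and -0.07 for miR-128-2* (95% interval -0.98 to 0.85). By the labels, miR-128-1* was higher in 2 of 2 trained NIPP1* libraries than in library 2, and miR-128 lower in 2 of 2. The share of all miRNAs with the first order was not counted, and 39.5% had the second. Neither order held with the groups of the tables. Library 3 was then below library 2 for miR-128-1* (41.83 against 42.37 RPM), and library 5 above it for miR-128. The difference between genotypes in the training effect was -0.10 for miR-128-1* (95% interval -1.01 to 0.82) and -0.37 for miR-128-2* (95% interval -1.63 to 0.89). With the groups of the tables these last 3 values of miR-128-2* turned sign. They became 0.30 between the trained genotypes, 0.23 for training in NIPP1* mice and 0.23 for the difference between genotypes. miR-128-1* turned sign only between the trained genotypes, to 0.011.

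**Figure D4:**
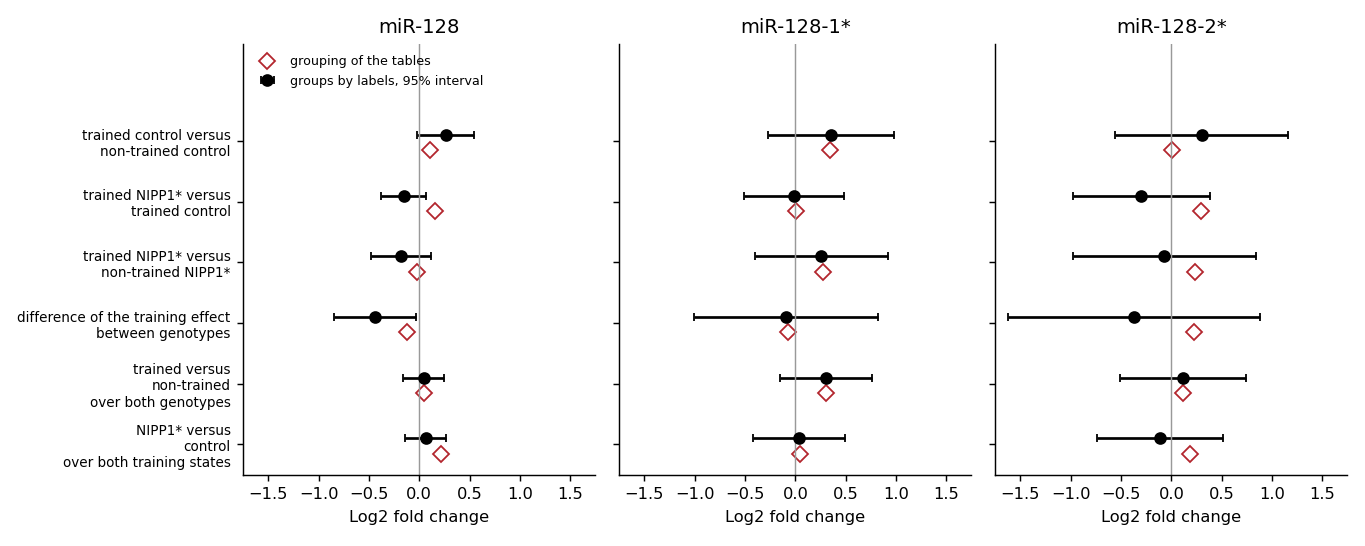
Log2 fold change of the 3 products in the 6 comparisons tested with limma, with groups by the labels (filled points, with 95% intervals) and with the assignment of trained libraries in the comparison tables (open diamonds, drawn without intervals). For miR-128 the value for trained NIPP1* against trained control mice is -0.16 by the labels and 0.16 by the tables.

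In non-trained mice, miR-128 was higher in the NIPP1* library than in the control library. The tables gave 529974 reads in the NIPP1* library and 479771 in the control library, a log2 ratio of RPM of 0.28 with an exact conditional 95% interval of 0.277 to 0.288 that covers counting error only. Each group had 1 library here, so no replicate bears on this difference and no p-value is given. Libraries of 1 group differed by up to 0.25 on the same scale (libraries 3 and 5), and by as little as 0.02 (libraries 6 and 7). Of 482 miRNAs, 34.6% had a larger ratio in size than miR-128, and 14 (2.90%) were past a log2 ratio of 1 in size, miR-128 not among them. miR-128-1* had 342 and 355 reads in these libraries, a log2 ratio of 0.09 (95% interval -0.13 to 0.30), and miR-128-2* had 67 and 70 reads, a log2 ratio of 0.08 (95% interval -0.43 to 0.58). A difference of the * products was not detectable at this depth.

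The miRNAs whose level ran most like that of miR-128 over the 7 libraries were taken from the 318 with a mean of at least 100 reads. They were miR-673-3p (Pearson's r = 0.94, Spearman's rho = 0.96), miR-125b-5p (r = 0.89, rho = 0.96), miR-504 (r = 0.88, rho = 0.89), miR-342-3p (r = 0.86, rho = 0.82) and miR-125a-5p (r = 0.86, rho = 0.93), on log2(RPM + 0.5). Leaving out libraries 1 and 5, the farthest from the median of miR-128, r lay between 0.78 and 0.90 for these miRNAs. They were picked as the highest of many, the points share library totals, and r is a description. miR-125b-5p had 81745 RPM in library 1, 105950 in library 2, 87840, 104150 and 106850 in libraries 3, 4 and 5, and 83435 and 87005 in libraries 6 and 7. Its lowest library was library 1 and its highest library 5, the same as for miR-128. Over all 318 the median r was -0.20, and 2.20% had an r over 0.8.

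The lowest values of r, chosen after the values were seen, were those of miR-7a (-0.98), miR-495 (-0.98) and miR-298 (-0.93). miR-7a, which is cut from several hairpins and is abundant in neurons and endocrine cells, had 9856 RPM in library 1, 6803 in library 2, 7748, 6924 and 5042 in libraries 3, 4 and 5, and 7660 and 8496 in libraries 6 and 7. Library 1 was thus its highest and library 5 its lowest, the reverse of miR-128. The products of the miR-128 stem were not chosen by r. They had r = 0.59 between miR-128 and miR-128-1*, 0.52 between miR-128 and miR-128-2*, and 0.53 between the * products. The pairs named above are the extremes of 318, over which the median r with miR-128 was -0.20.

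**Figure D5:**
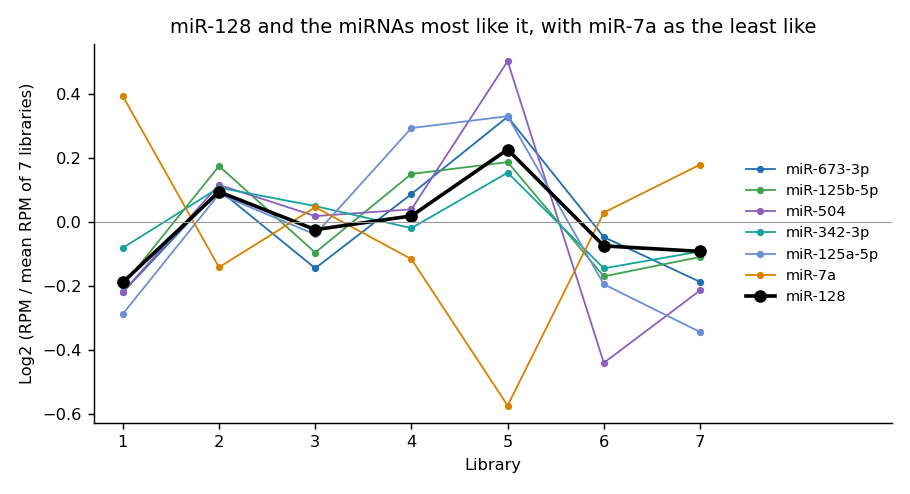
Log2 of the RPM of a miRNA over its mean of the 7 libraries, by library, for miR-128 (black), the 5 miRNAs most like it and miR-7a, the least like it. Lines join the values of 1 miRNA and stand for no order of the libraries. miR-128 is lowest in library 1 and highest in library 5, and miR-7a is the reverse.

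miR-128 is counted among the miRNAs enriched in neurons, and it was set beside a list of 14 others, of which 12 were matched by these names. The defining members miR-124 (mean 4058 RPM), miR-9 and miR-137 (mean 10799 RPM) were present in every library. The summed level of the list was 217734 RPM in library 1, 188436 in library 2, 206080, 172528 and 160283 in libraries 3, 4 and 5, and 192205 and 195457 in libraries 6 and 7. It was highest where miR-128 was lowest and lowest where miR-128 was highest, with r = -0.86 over 7 libraries, and 2 of the 12 members had an r with miR-128 above 0. miR-128 thus did not run with the sum of the other neuron-enriched miRNAs, in which miR-9 takes the largest share. An r under 0 was common, found for 59.4% of the 318 miRNAs compared with miR-128. Levels are shares of 1 total, and the part of this in r was not tested. Between trained and non-trained controls 3 of the 12 were higher and 9 lower, with a median log2 difference of -0.27 beside -0.09 for all miRNAs tested, and limma called 0 in this and in the other comparisons. With the groups of the tables, 5 were higher and 7 lower, with a median of -0.10. For training in NIPP1* mice the direction of the median depended on the groups, with 9 higher and 3 lower and a median of 0.05 by the labels, against 3 higher and 9 lower and a median of -0.08 by the tables. Between trained NIPP1* and trained control mice 10 were higher and 2 lower by the labels (median 0.17), and 2 higher and 10 lower by the tables (median -0.17). Of all 476 miRNAs tested, 193 were higher and 283 lower between trained and non-trained controls by the labels, and 213 and 263 by the tables. For training in NIPP1* mice these counts were 209 and 267 by the labels, and 170 and 306 by the tables. Between the trained genotypes they were 268 and 208 by the labels, and 208 and 268 by the tables.

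Other miRNAs in introns of protein-coding genes were described in the same way. Of 31 listed, 29 were tested, and 0 were called by limma in any comparison. Between trained and non-trained controls 8 of the 29 were higher and 21 lower, with a median of -0.20, and between trained NIPP1* and trained control mice 22 were higher and 7 lower, with a median of 0.17 beside 0.04 for all miRNAs tested. With the groups of the tables, 11 were higher and 18 lower in the first comparison, with a median of -0.05, and 7 higher and 22 lower in the second, with a median of -0.17. For training in NIPP1* mice 16 were higher and 13 lower by the labels, with a median of 0.04, and 9 higher and 20 lower by the tables, with a median of -0.09. For NIPP1* over both training states 21 were higher and 8 lower by the labels, with a median of 0.05 beside 0.06 for miR-128, and 11 higher and 18 lower by the tables, with a median of -0.07 beside 0.22. Of all miRNAs tested, 272 were higher and 204 lower by the labels (median 0.02), and 224 and 252 by the tables (median -0.02). Their summed level lay between 99659 RPM (library 4) and 109244 RPM (library 7). An r with miR-128 above 0 was seen for 7 members, while 59.4% of the 318 miRNAs compared had an r under 0.

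Markers of other cell types also varied between the libraries. Over the 7 libraries the summed level was 538 to 2518 RPM for 4 choroid plexus miRNAs, with miR-211 listed at 0 in library 4, and 3222 to 5416 RPM for 3 oligodendrocyte miRNAs. It was 808 to 1312 RPM for 5 miRNAs of microglia and leukocytes, 14791 to 18452 RPM for 4 blood vessel miRNAs and 61.9 to 251 RPM for 2 red blood cell miRNAs. The oligodendrocyte sum was 5416 RPM in library 1, 4356 in library 2, 3670, 3222 and 3474 in libraries 3, 4 and 5, and 5009 and 4631 in libraries 6 and 7, so that by the labels it was higher in every trained NIPP1* library than in every trained control library, and by the tables lower. Under either assignment this order was the reverse of that of miR-128. Between the trained genotypes 2 of the 3 members were at an unadjusted limma p under 0.05, as were 7.14% of all miRNAs tested. All 3 oligodendrocyte members were lower in trained than in non-trained controls, with a median of -0.68, and limma called 0. With the groups of the tables, 1 of the 3 was higher and 2 lower, with a median of -0.10. The medians over all miRNAs tested were -0.09 by the labels and -0.04 by the tables. In NIPP1* mice all 3 were higher in trained mice by the labels, with a median of 0.15, and all 3 lower by the tables, with a median of -0.22. The red blood cell sum was 116 RPM in library 1, 85.0 in library 2, 126, 61.9 and 62.3 in libraries 3, 4 and 5, and 132 and 251 in libraries 6 and 7, so that it too separated the trained groups in the reverse order of miR-128, as did 18.7% of the miRNAs tested. Its 2 members had a median difference of 1.28 between trained NIPP1* and trained control mice by the labels and -1.28 by the tables, each at an unadjusted limma p under 0.05, as for 7.14% of all miRNAs tested, and with 0 called, and r of the sum with miR-128 over the 7 libraries was -0.67. The choroid plexus sum was highest in library 3, at 2518 RPM beside 538 to 1849 RPM in the others. The blood vessel sum was highest in library 5, as was miR-128, but lowest in library 2, where miR-128 was second highest, and 2 of its 4 members had an r with miR-128 above 0. For the difference between genotypes in the training effect, all 3 oligodendrocyte members were positive by the labels, with a median of 0.82. By the tables all 3 were negative, with a median of -0.18. Both red blood cell members were positive by the labels (median 2.09) and negative by the tables (median -0.47). The other cell types had members on both sides by the labels. Of all miRNAs tested, 252 were positive and 224 negative by the labels, and 204 and 272 by the tables. The part of these cell types in the values of miR-128 was not tested. In such bulk samples, fewer cells of a type and less RNA per cell cannot be told apart.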

How the data were processed

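Small RNA of pooled mouse hippocampus was measured in 7 libraries (TruSeq). Per the labels, CASAVA 1.7.0, Bowtie and bedtools were used, and inserts of 19 to 26 nt were mapped to NCBI37/mm9. The authors deposited the percent of all miRNA reads that fell on each mature locus. Tables of group comparisons were deposited too, and their signal (means of reads divided by size factors) was used for names, reads of libraries 1 and 2 and the check of grouping. Their fold changes and p-values are the authors' own comparisons and were not used, nor were 2 columns whose names show no sample.

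RPM values were computed from the percentages, with loci of identical mature sequence averaged (806 loci, 756 sequences). Of 706 table names with reads, 637 were joined to a sequence, 578 by name and reads and 59 by reads alone. The steps between low deposited percent values gave back whole reads: 100% of values up to 100 reads were whole within 0.15 of a read. In the single-library columns 100% were whole within 0.01. Recovered totals were 7285262 to 10017736 reads per library.

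The test was limma (lmFit, eBayes with trend) on log2(RPM + 0.5) in 7 libraries and 4 groups, over the 476 miRNAs whose mean reached 10 reads, adjusted by Benjamini-Hochberg (threshold 0.05). The pseudocount makes fold changes of low miRNAs too small. The scripts were tested on simulated data. The edgeR quasi-likelihood and DESeq2 Wald tests on recovered reads, TMM and DESeq2 size factors, a total without the 10 most abundant other miRNAs, pseudocounts of 0.1 and 1, read minimums of 0 and 100, models of the compared groups, the grouping of the tables and leaving out each library were alternatives. Hairpin and mature sequences came from RefSeq (GRCm38.p6), and all 3 products and both hairpins matched.

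The text names the products of the stem, miRNAs with the seed letters in their first 10 bases, 3 neighbours in rank on each side and the 5 highest r among miRNAs that averaged 100 reads or more. The members and lists were chosen with earlier results of these data known. Software was Python 3.11.15 with pandas 2.3.3, scipy 1.17.1 and numpy 2.4.6, and R 4.3.3 with DESeq2 1.42.0, limma 3.58.1 and edgeR 4.0.16.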

Additional observations from a re-analysis of the deposited data

Results flagged for a closer look

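The difference between genotypes in the training effect for miR-128, -0.44 on the log2 scale (limma adjusted p = 0.577 over 476 miRNAs), stood out because every library moved one way in one genotype and the opposite way in the other. All 3 trained control libraries were above the library labelled non-trained control, and both trained NIPP1* libraries were below the library labelled non-trained NIPP1*. The same arrangement was seen for 8.40% of the miRNAs tested, and the difference failed the correction for multiple tests. Under the assignment of trained libraries in the comparison tables it was -0.13 (limma adjusted p = 0.997). The arrangement was then lost, since library 5 at 71940 RPM was above library 2 at 65650 RPM. Under that assignment the same contrast of libraries, with its sign turned and on another scale, is that of NIPP1* over both training states. Its value there was 0.22 for miR-128, so -0.44 and 0.22 are not separate results. Markers of other cell types also differed in the training effect between genotypes, as given above, and their part in the value of miR-128 was not tested.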

How the results depend on the processing

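No comparison of miR-128 or its * products passed the threshold under any alternative run, and the lowest adjusted p of miR-128 was 0.156 (the difference between genotypes in the training effect by limma without library 3). Of 97 alternative values of miR-128, 54 moved by over 0.005, the others leaving the fold change as it was, and 1 turned sign. It was trained NIPP1* against trained control mice, 0.16 under the grouping of the comparison tables, where the labels gave -0.16. Leaving out 1 library at a time, miR-128 ranged from 0.19 to 0.31 for training in controls, from -0.21 to -0.08 for the trained genotypes, from -0.19 to -0.17 for training in NIPP1* mice, from -0.49 to -0.36 for the difference between genotypes, from 0.0041 to 0.067 for training over both genotypes and from 0.038 to 0.10 for NIPP1* over both training states. The DESeq2 Wald test called 1 miRNA for training in controls, 1 between the trained genotypes, 2 for training in NIPP1* mice, 2 for the difference between genotypes and 1 for training over both genotypes, where limma called 0. The cause was not tested. The ratio of miR-128 between the non-trained libraries moved from 0.283 to 0.277 with TMM and to 0.300 without the 10 most abundant other miRNAs, which is beyond its counting interval. The level of miR-128 was 72513 RPM at the Mir128-1 locus alone and 50460 RPM at the Mir128-2 locus alone, since the deposited values of the loci differ. Across settings, other scalings and tests gave miR-128 0.061 to 0.11 for training over both genotypes and 0.020 to 0.060 for NIPP1* over both training states. They gave 0.30 to 0.36 for training in controls and -0.51 to -0.48 for the difference between genotypes. Under the grouping of the tables the * products turned sign between the trained genotypes (miR-128-1* 0.011, miR-128-2* 0.30), and miR-128-2* also for training in NIPP1* mice (0.23), for the difference between genotypes (0.23) and for NIPP1* over both training states (0.19). For NIPP1* over both training states miR-128-1* was -0.0031 with TMM and -0.013 with edgeR. With edgeR miR-128-1* was -0.11 between the trained genotypes and -0.18 for the difference between genotypes, and with the DESeq2 Wald test miR-128-2* was 0.46 for training in controls. Leaving out 1 library, miR-128-1* ranged from 0.20 to 0.50 for training in controls, from -0.15 to 0.14 between the trained genotypes, from -0.24 to 0.055 for the difference between genotypes and from -0.035 to 0.11 for NIPP1* over both training states, and miR-128-2* from -0.21 to 0.077 for training in NIPP1* mice, from 0.13 to 0.55 for training in controls, from -0.55 to -0.12 between the trained genotypes and from -0.62 to -0.19 for the difference between genotypes. Library 1 or 2 could not be left out of a comparison that needs it, and a model of only the groups compared was not run for the comparisons that use all 4 groups. No paired analysis was possible because the labels give no replicate numbers, those used here follow the order of the samples, and nothing ties them to a litter, batch or day. With 1 library in each non-trained group the spread there is unknown, and with 56 to 106 reads miR-128-2* has a wide counting error.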
